A study of Rattus norvegicus with 8 samples.

Results

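The bile acid receptor FXR (Nr1h4), the genes of its signalling axis and the nuclear receptors that share its partners and targets in the liver were followed across 8 rat livers. The genes were listed by name: Nr1h4, Nr0b2, Fgfr4, Klb, Nr5a2, Nr1i2, Nr1i3, Hnf4a, Rxra and Ahr. A probe set counted for a gene when the platform annotation gave it that gene and no other. By this rule 9 of the 10 genes had 14 probe sets, out of 14213 genes with 20826 such probe sets on the array. Klb, the co-receptor that lets FGFR4 bind its intestinal ligand, had no such probe set and was not analysed here.

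Liver RNA came from male Sprague-Dawley rats aged 7 weeks, with 1 Affymetrix 3' expression array per rat and 4 rats per diet. The L. brevis rats ate, for 2 weeks, CRF-1 chow to which cholesterol (10 g per kg), cholic acid (5 g per kg) and 10 g per kg of freeze-dried viable Lactobacillus brevis 119-2, a turnip isolate, had been added. The control rats ate the same chow with the same cholesterol and cholic acid but no bacteria, per the design text, although their source label names CRF-1 alone. Each diet was given to 11 rats in the study, and the sources do not say how the 4 rats were chosen. Both diets held cholic acid, which is itself a precursor of FXR ligands, so no group shows the axis without added bile acid.

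FXR is a nuclear receptor that bile acids activate. It binds DNA mainly as a heterodimer with RXR alpha (Rxra) and induces the small heterodimer partner SHP (Nr0b2), a receptor without a DNA-binding domain that represses the bile acid synthesis enzymes Cyp7a1 and Cyp8b1. Intestinal FXR induces FGF15, which reaches the liver and lowers the same synthesis through FGFR4 with its co-receptor beta-klotho. LRH-1 (Nr5a2) and HNF4 alpha (Hnf4a) drive those enzymes and are targets of SHP, while PXR (Nr1i2), CAR (Nr1i3) and the aryl hydrocarbon receptor (Ahr) sense foreign compounds and some bile acids or diet compounds and induce detoxifying enzymes.

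A literal search for the short letter patterns that FXR with RXR, or LRH-1, is known to bind found a match in 4 promoters, and the 3 of them whose match lies on SHP, on an enzyme it represses or on an inverted repeat are shown. RefSeq promoter windows of 250 bases before to 50 after the gene start (build GRCr8) were used for 9 of the 10 genes, all but Nr1h4, and for 16 of the genes listed below as FXR targets. Capitals mark the match. The extended half-site CAAGGNCA of the LRH-1 kind, searched on both strands, was in 2192 of 33469 rat promoters (6.55%), in 1 of the 9 axis and receptor promoters (Nr0b2) and in 3 of the 16 FXR target promoters (Nr0b2, Cyp8b1 and Cyp27a1). The inverted repeat of the FXR and RXR kind, searched as AGGTCA, any 1 base and then TGNCCT on both strands, was in 24 of 33469 promoters (0.0717%), in 0 of the 9 and in 1 of the 16 (Slco1b2, a hepatic uptake transporter, on the minus strand). The matches begin 199 bases before the start in Nr0b2 (chr5:151062910-151063209, plus strand), 82 before in Cyp8b1 (chr8:130457543-130457842, minus strand) and 85 before in Slco1b2 (chr4:176282334-176282633, plus strand). In Cyp27a1, whose promoter is not shown, the match begins 236 bases before the start. A match describes letters in this window and is not a measured binding site.
Nr0b2: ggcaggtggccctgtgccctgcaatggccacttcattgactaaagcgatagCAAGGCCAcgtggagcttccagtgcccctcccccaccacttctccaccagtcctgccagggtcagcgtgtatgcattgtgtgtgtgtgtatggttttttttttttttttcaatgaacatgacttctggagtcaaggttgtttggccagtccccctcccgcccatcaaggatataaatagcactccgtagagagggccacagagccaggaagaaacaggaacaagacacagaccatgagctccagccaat
Cyp8b1: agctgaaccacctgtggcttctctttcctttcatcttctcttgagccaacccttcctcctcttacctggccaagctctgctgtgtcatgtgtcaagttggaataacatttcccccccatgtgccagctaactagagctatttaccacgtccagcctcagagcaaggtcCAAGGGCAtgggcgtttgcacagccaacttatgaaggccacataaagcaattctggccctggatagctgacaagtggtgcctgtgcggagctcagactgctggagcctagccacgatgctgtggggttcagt
Slco1b2: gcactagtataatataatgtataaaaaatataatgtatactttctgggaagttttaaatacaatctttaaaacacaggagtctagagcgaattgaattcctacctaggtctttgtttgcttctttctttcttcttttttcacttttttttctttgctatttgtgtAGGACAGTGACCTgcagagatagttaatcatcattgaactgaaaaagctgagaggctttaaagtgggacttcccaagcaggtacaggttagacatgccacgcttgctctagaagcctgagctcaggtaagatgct

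The deposited signals are normalized log2 values, and array medians lay between 6.61 and 6.63. Of 31042 probe sets, 24719 spanned no more than 0.01 log2 over the arrays and 6323 (20.4%) varied. A value shared by the arrays carries no information on differences between rats. Tests were run with limma over the 6323 varying probe sets, with differences given as L. brevis minus control and p-values adjusted by the Benjamini-Hochberg method over those probe sets. At an adjusted p under 0.05, 4 of them (0.0633%) were called, 0 higher and 4 lower in L. brevis livers, and 24.5% had an unadjusted p under 0.05 (10.7% higher and 13.8% lower). Hepatocyte markers matched the liver label, with mean signals of 13.57 to 13.64 in L. brevis livers and 13.58 to 13.64 in control livers. L. brevis rat 2 stood apart in skeletal muscle markers, with a mean of 9.41 against 5.91 to 6.01 in the other rats of both diets. The Affymetrix controls at the 5' and 3' ends of GAPDH, whose difference is a measure of RNA integrity and labelling, separated less in L. brevis livers: 5' minus 3' was -2.20, -1.30, -0.94 and -0.68 in L. brevis rats 1 to 4, against -2.89, -1.83, -2.93 and -1.98 in control rats 1 to 4. L. brevis rat 1 lay inside the control range and the other 3 L. brevis rats above it.

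None of the 8 genes with a varying probe set passed the adjusted threshold between the diets, and in none were the 2 diets free of overlap, against a background of 11.3% of varying probe sets without overlap. Nr1h4 averaged 1.46-fold lower and Rxra 1.40-fold higher in L. brevis livers, both with an unadjusted limma p under 0.05. That is 2 of 8 genes, or 25%, beside the 24.5% among all varying probe sets. The median difference of the 8 genes was -0.06, with 3 higher and 5 lower in L. brevis livers, and that of all varying probe sets was -0.02.

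**Figure D1:**
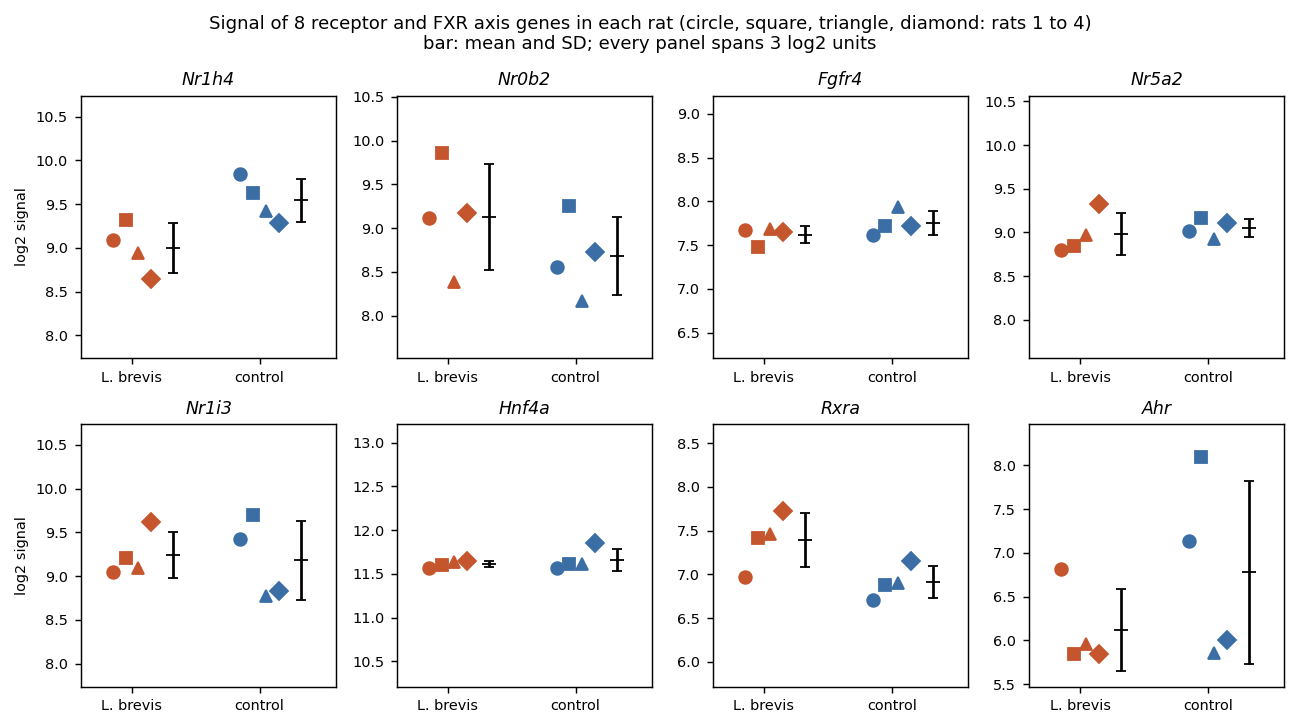
Log2 signal (vertical axes) of the brightest varying probe set of 8 axis and receptor genes, with L. brevis rats on the left and control rats on the right of each panel, 1 point per rat, and the mean and SD of 4 rats as a bar. Nr1h4 lies lower in 3 of 4 L. brevis rats than in any control rat, Rxra lies higher in 3 of 4, and Hnf4a keeps within 0.28 log2 in all 8 rats.

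Nr1h4, the bile acid receptor itself (probe set 1369073_at), read 9.09, 9.32, 8.94 and 8.64 log2 in L. brevis rats 1 to 4, against 9.84, 9.63, 9.42 and 9.28 in control rats 1 to 4. L. brevis rats 1, 3 and 4 lay below every control rat, and the groups overlapped only through L. brevis rat 2, just above control rat 4. The means were 9.0 ± 0.28 in L. brevis livers and 9.54 ± 0.25 in control livers (SD, n = 4 each). The difference was -0.54 (SE 0.18, limma 95% interval -0.96 to -0.13), with an unadjusted p of 0.0169 and an adjusted p of 0.151. An exact permutation test of this gene alone gave p = 0.0571, two-sided, where the smallest p that 4 against 4 rats allow is 0.0286.

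Rxra, the partner with which FXR, PXR and CAR bind DNA (1369101_at), read 6.97, 7.42, 7.46 and 7.72 in L. brevis rats, against 6.71, 6.88, 6.90 and 7.15 in control rats. L. brevis rats 2, 3 and 4 lay above every control rat, and L. brevis rat 1 lay inside the control range. The means were 7.39 ± 0.31 in L. brevis livers and 6.91 ± 0.18 in control livers. The difference was 0.48 (SE 0.17, 95% interval 0.09 to 0.87), with limma's unadjusted p at 0.022 and the adjusted p at 0.159, and the exact permutation p was 0.0571.

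Whether these genes were called depended on how the arrays were weighted. Array weights estimated by limma ran from 0.32 for that rat to 3.36 for L. brevis rat 3. With them, Nr1h4 fell by 0.58 (adjusted p = 0.0366) and Rxra rose by 0.56 (adjusted p = 0.0238), in a fit that called 24.7% of all varying probe sets at the adjusted threshold. Without L. brevis rat 1, Rxra rose by 0.62 (adjusted p = 0.0282), Nr1h4 had a difference of -0.57 (adjusted p = 0.0915), and 18.1% of varying probe sets were called. Without L. brevis rat 2, the rat with the muscle signal, the differences were -0.65 for Nr1h4 (adjusted p = 0.255) and 0.47 for Rxra (adjusted p = 0.289).

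Nr1h4 and Rxra ran opposite to each other across the pooled rats of both diets, which includes their opposite diet differences. Over the 8 rats their Pearson r was -0.86 and Spearman's rho -0.90; the exact permutation p was 0.00558 for r and 0.00456 for rho, or 0.156 and 0.128 after adjustment over the 28 pairs of these genes, of which 2 had an unadjusted p under 0.05 and 0 an adjusted one. Without the 2 rats farthest from the median of Nr1h4, r was -0.60. Over deviations from the diet means it was -0.68 (exact permutation p = 0.0635, adjusted 0.348). L. brevis rat 4 had the lowest Nr1h4 and the highest Rxra of all rats, and control rat 1 had the highest Nr1h4 and the lowest Rxra.

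The GAPDH 5' minus 3' signal moved with both genes. Rxra correlated with it at r = 0.92 and rho = 0.81 over the 8 rats (exact permutation p = 0.00119 for r and 0.0218 for rho; adjusted p of r = 0.00952 over 8 genes), at 0.92 without the 2 rats farthest from the median of that signal and at 0.83 within diets. Nr1h4 correlated with it at r = -0.76 and rho = -0.67 (exact permutation p = 0.0279 for r and 0.0831 for rho; adjusted p of r = 0.112), at -0.70 without the 2 farthest rats and at -0.47 within diets. An r at least as far from 0 as that of Rxra occurred in 8.62% of varying probe sets, and one at least as far as that of Nr1h4 in 35.4%. With this signal as a covariate the diet difference was -0.32 for Nr1h4 (adjusted p = 0.79) and 0.10 for Rxra (adjusted p = 0.907), and the r between the genes was -0.62 once it was regressed out of both. Its part in these differences beyond those values was not tested.

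**Figure D2:**
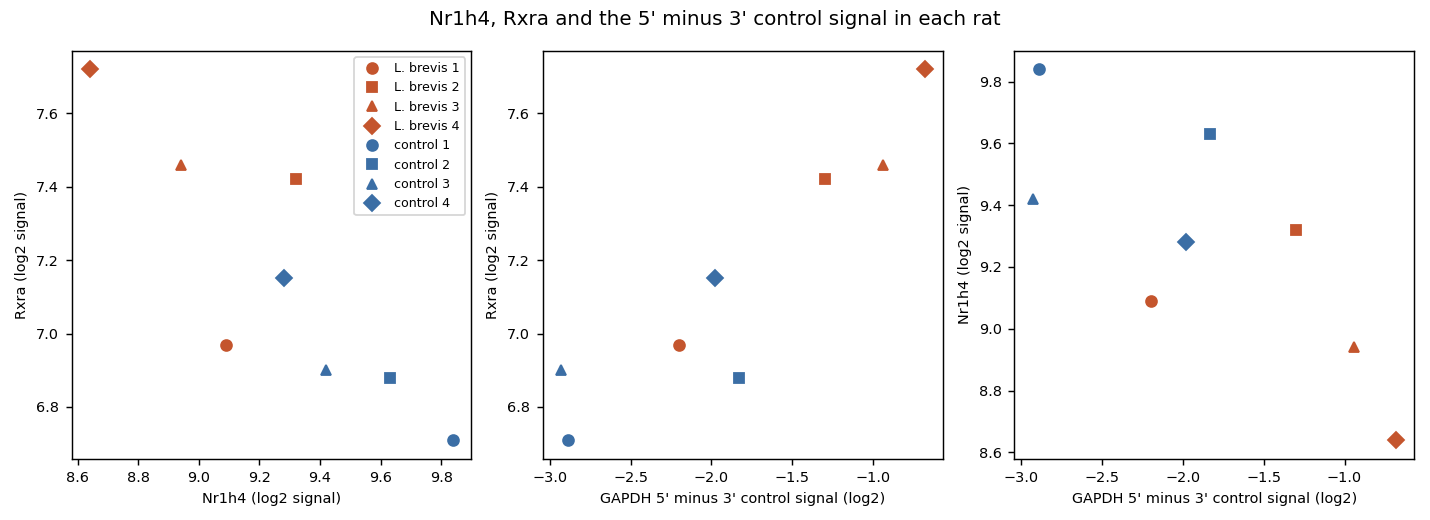
Each point is 1 rat, L. brevis in orange and control in blue; the left panel sets Rxra against Nr1h4, and the other 2 set each gene against the GAPDH 5' minus 3' control signal, all in log2. Rats with a less negative control signal have more Rxra (r = 0.92) and less Nr1h4 (r = -0.76), and L. brevis rat 4 lies at the end of all 3 panels.

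Endothelial markers lay lower in L. brevis livers as well. All 6 varying markers of 7 measured had a lower mean there, 3 of them at an unadjusted limma p under 0.05 and 0 at an adjusted one, with a median difference of -0.43. Among all varying probe sets 3402 of 6323 had a lower mean, and 13.8% were lower at that unadjusted p. The mean over the markers was 8.57, 8.45, 8.46 and 8.38 in L. brevis rats 1 to 4, against 8.96, 9.28, 8.86 and 8.66 in control rats 1 to 4, without overlap. Of single varying probe sets 11.3% had no overlap. Tek, the seventh marker measured, held 8.11 on every array. In bulk liver, fewer cells of a type and less RNA per cell cannot be told apart, and the part of these cells in the receptor signals was not tested. Macrophage marker means spanned 8.88 to 9.23 in L. brevis livers and 8.70 to 9.19 in control livers. Of 6 varying macrophage markers 5 had a higher mean in L. brevis livers, 2 at an unadjusted limma p under 0.05 and 0 at an adjusted one. These were Adgre1, a macrophage surface receptor, at 0.65 (SE 0.16, adjusted p = 0.125) without overlap of the diets, and the complement gene C1qb at 0.73 (SE 0.26, adjusted p = 0.163). Among all varying probe sets 2921 of 6323 had a higher mean, 10.7% were higher at that unadjusted p and 11.3% had no overlap. The part of macrophages in the receptor signals was not tested either. The marker means of stellate cells spanned 8.41 to 8.87 in L. brevis livers and 8.50 to 8.89 in control livers.

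SHP (Nr0b2, 1368376_at), the repressor that FXR induces, read 9.11, 9.86, 8.38 and 9.17 in L. brevis rats, against 8.56, 9.25, 8.17 and 8.73 in control rats. The spread between rats of 1 diet (SD 0.53) was larger than in 88.2% of varying probe sets, and the groups overlapped through L. brevis rat 3 and control rat 2. The means were 9.13 ± 0.61 in L. brevis livers and 8.68 ± 0.45 in control livers, a difference of 0.45 with a limma 95% interval of -0.35 to 1.25 (adjusted p = 0.434). It was 0.21 without L. brevis rat 2, which read highest, 0.0944 with array weights and 0.23 with the GAPDH covariate. It was larger without L. brevis rat 3 (0.70) or without control rat 2 (0.64). The estimate stayed above 0 in these fits but near it in the weighted one. With an interval that spans 0, its sign beside that of the receptor is weakly held. Across the 8 rats Nr1h4 and Nr0b2 had r = -0.11 and rho = -0.05 (exact permutation p = 0.789 and 0.935), which turned to 0.38 over deviations from the diet means and to 0.26 without the 2 rats farthest from the median of Nr1h4.

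Fgfr4 (1389801_at), the hepatic receptor of intestinal FGF15, varied little. It read 7.67, 7.48, 7.68 and 7.65 in L. brevis rats, against 7.62, 7.72, 7.94 and 7.72 in control rats. The difference of -0.13 had a 95% interval of -0.34 to 0.07 (limma adjusted p = 0.375). L. brevis rat 2 was the lowest and control rat 3 the highest, while the other 6 rats lay between 7.62 and 7.72. Of 6 other genes of FGF receptor signalling on the array (Fgfr1, Fgfr2, Fgfr3, Kl, Ptpn11 and Frs2), 2 varied, both with a lower mean in L. brevis livers, and limma called 0 of them by the unadjusted or the adjusted p.

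LRH-1 (Nr5a2), which drives bile acid synthesis genes and Nr0b2 itself, had 3 varying probe sets that disagreed. The brightest, 1390965_at, read 8.80, 8.84, 8.97 and 9.33 in L. brevis rats, against 9.02, 9.16, 8.92 and 9.11 in control rats, a difference of -0.07 (95% interval -0.37 to 0.24, limma adjusted p = 0.775). Probe set 1384835_at read 7.40, 7.91, 8.21 and 8.04 in L. brevis rats, against 7.12, 7.80, 7.07 and 7.12 in control rats. There 3 L. brevis rats lay above every control rat, and the difference was 0.62 (95% interval 0.09 to 1.14), with an unadjusted limma p of 0.0278 and an adjusted one of 0.168. Probe set 1387573_a_at had a difference of 0.34 (adjusted p = 0.219), and the mean over the 3 probe sets gave 0.30 (adjusted p = 0.252). Which transcripts each probe set detects was not examined here.

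HNF4 alpha (Hnf4a), a receptor that sustains many hepatocyte genes, was the steadiest of the 8 varying genes. Its varying probe set 1392969_at read 11.57, 11.60, 11.64 and 11.65 in L. brevis rats, against 11.57, 11.61, 11.61 and 11.85 in control rats. The difference was -0.05 (95% interval -0.22 to 0.12, limma adjusted p = 0.712), the within-diet SD of 0.09 was larger than in 15.1% of varying probe sets, and only control rat 4 lay away from the rest. Without control rat 4 the difference was 0.0146. Its other probe sets, 1369289_at and 1382496_at, held 7.07 and 7.14 on every array.

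Among the receptors of foreign compounds, PXR (Nr1i2, 1369270_at) held 8.65 on every array, so these values show nothing about its response to diet. CAR (Nr1i3, 1368797_at) read 9.05, 9.21, 9.09 and 9.62 in L. brevis rats, against 9.42, 9.70, 8.77 and 8.83 in control rats. Control rats 1 and 2 lay well above control rats 3 and 4, and every L. brevis rat fell inside the control range. The CAR difference of 0.06 had a 95% interval of -0.51 to 0.62 (limma adjusted p = 0.911), and it turned negative in 3 of the fits that left out 1 rat.

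The aryl hydrocarbon receptor (Ahr, 1369146_a_at) was the most variable of the 8 genes. It read 6.82, 5.84, 5.96 and 5.85 in L. brevis rats, against 7.14, 8.10, 5.86 and 6.01 in control rats. L. brevis rat 1 and control rats 1 and 2 lay high and the other 5 rats between 5.84 and 6.01, so the split did not follow diet. Those 5 rats read below 6.63, the median of all probe sets, so the signal was dim in most livers. The means were 6.12 ± 0.47 in L. brevis livers and 6.78 ± 1.05 in control livers, a difference of -0.66 (95% interval -1.87 to 0.55, limma adjusted p = 0.45). Without control rat 2 it was -0.22, which moves it by more than 1.5 times. Another probe set, 1369147_at, held 6.11 on every array.

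**Figure D3:**
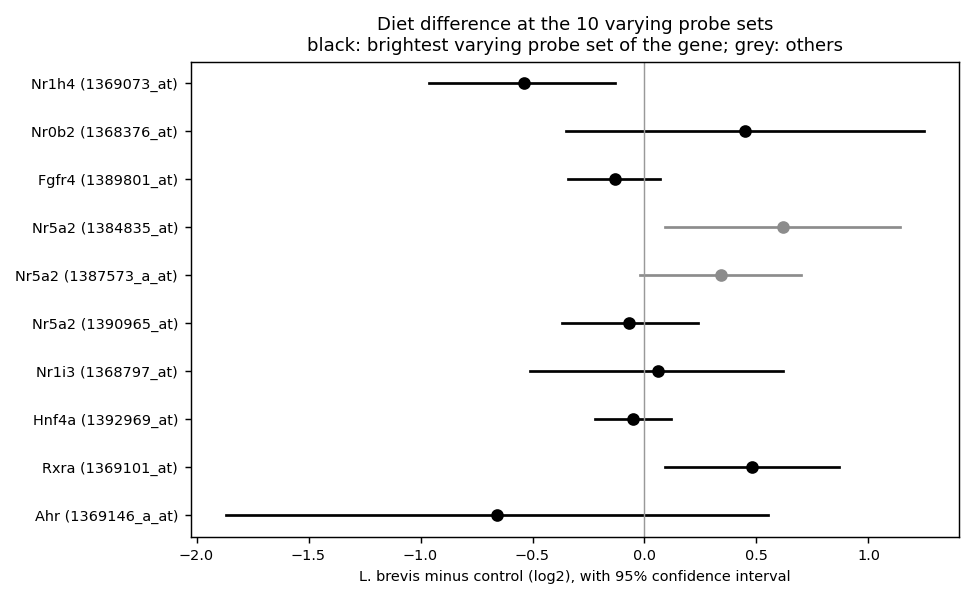
Difference between diets (horizontal axis, L. brevis minus control, log2) with limma's 95% interval for the 10 varying probe sets of the 8 genes; black marks the brightest varying probe set of a gene and grey the others. The intervals of Nr1h4, Rxra and 1 of 3 Nr5a2 probe sets lie clear of 0 before adjustment, and the Nr5a2 probe sets fall on both sides of it.

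The targets of FXR were then described from lists of genes known to be induced or repressed when the receptor is active, mostly from work in mice and in human cells. Of 14 listed FXR-induced genes 12 were measured and 10 varied: 6 had a higher and 4 a lower mean in L. brevis livers, with a median difference of 0.16 beside -0.02 for all varying probe sets. None passed limma's adjusted threshold, and 1 in each direction had an unadjusted p under 0.05. Among all varying probe sets 10.7% were higher and 13.8% lower at that p, so these counts are near the background. The genes, Slc27a5 and Baat, are neighbouring steps of bile acid conjugation, and they lay in opposite directions.

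Slc27a5, the bile acyl-CoA synthetase that activates bile acids for conjugation, read 12.14, 12.11, 11.76 and 11.67 in L. brevis rats, against 12.45, 12.86, 12.61 and 12.36 in control rats. The groups did not overlap, and the difference was -0.65 (SE 0.15, unadjusted limma p of 0.003, adjusted p = 0.116). Baat, which joins the activated bile acid to taurine or glycine, read 12.81, 12.79, 13.02 and 13.04 in L. brevis rats, against 12.39, 12.71, 12.58 and 12.35 in control rats. Here too the groups did not overlap, with a difference of 0.41 (SE 0.10, unadjusted limma p of 0.00483, adjusted p = 0.125). Of all varying probe sets 11.3% had no overlap of the diets. Array weights brought Slc27a5 and Baat past the adjusted threshold, together with Abcc2, an organic anion exporter whose difference in the unweighted fit was 0.53 (SE 0.34). These are 3 of 10 varying genes in a fit that called 24.7% of all varying probe sets, so the count is near the background.

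The other induced genes did not reach an unadjusted p under 0.05. The bile salt export pump Abcb11 differed by 0.22 (SE 0.17), the phospholipid exporter Abcb4 by -0.12, the phospholipid transfer protein Pltp by 0.46 (SE 0.27), the heparan sulphate proteoglycan Sdc1 by -0.22, the repressor Mafg by 0.10 and apolipoprotein Apoc2 by -0.02. Slc51a, a subunit of the basolateral bile acid exporter, and Fetub held 6.32 and 13.17 on every array.

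All 7 listed FXR-repressed genes varied, 4 with a higher and 3 with a lower mean in L. brevis livers (median difference 0.05). At their brightest varying probe sets limma again called 0 of them after adjustment and 1 in each direction before it. Among all varying probe sets 10.7% were higher and 13.8% lower before adjustment, so these counts too are near the background. Cyp7a1, the rate-limiting enzyme of bile acid synthesis, read 8.38, 11.51, 11.98 and 11.50 in L. brevis rats, against 12.13, 10.32, 6.31 and 11.77 in control rats. Single rats of both diets lay several log2 units below the others, and the difference of 0.71 had a 95% interval of -2.59 to 4.01. Cyp8b1, the 12-alpha-hydroxylase that makes cholic acid, read 8.97, 6.99, 8.39 and 8.62 in L. brevis rats, against 9.59, 7.57, 7.95 and 9.26 in control rats, a difference of -0.35 (95% interval -1.73 to 1.03). For these enzymes the data leave large differences in either direction possible.

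Cyp27a1, which starts the alternative synthesis pathway, read 12.04, 11.90, 11.68 and 11.58 in L. brevis rats, against 12.28, 12.26, 12.29 and 11.78 in control rats. Control rat 4 lay among the L. brevis rats, and the difference was -0.35 (SE 0.15, unadjusted limma p of 0.0491, adjusted p = 0.203). Slc10a1, the sodium-dependent bile acid importer NTCP, read 12.37, 12.45, 12.52 and 12.74 in L. brevis rats, against 12.32, 12.35, 12.05 and 12.24 in control rats. The diets did not overlap there, as in 11.3% of all varying probe sets. The difference of Slc10a1 was 0.28 (SE 0.10, unadjusted limma p of 0.0267, adjusted p = 0.168). Slco1b2, whose promoter holds the inverted repeat, differed by 0.23 (SE 0.11, adjusted p = 0.231), Apoa1 by -0.13 and Apoc3 by 0.05. With array weights Slc10a1 and Cyp27a1, 2 of the 7 genes, passed the adjusted threshold, again near the 24.7% of all varying probe sets.

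**Figure D4:**
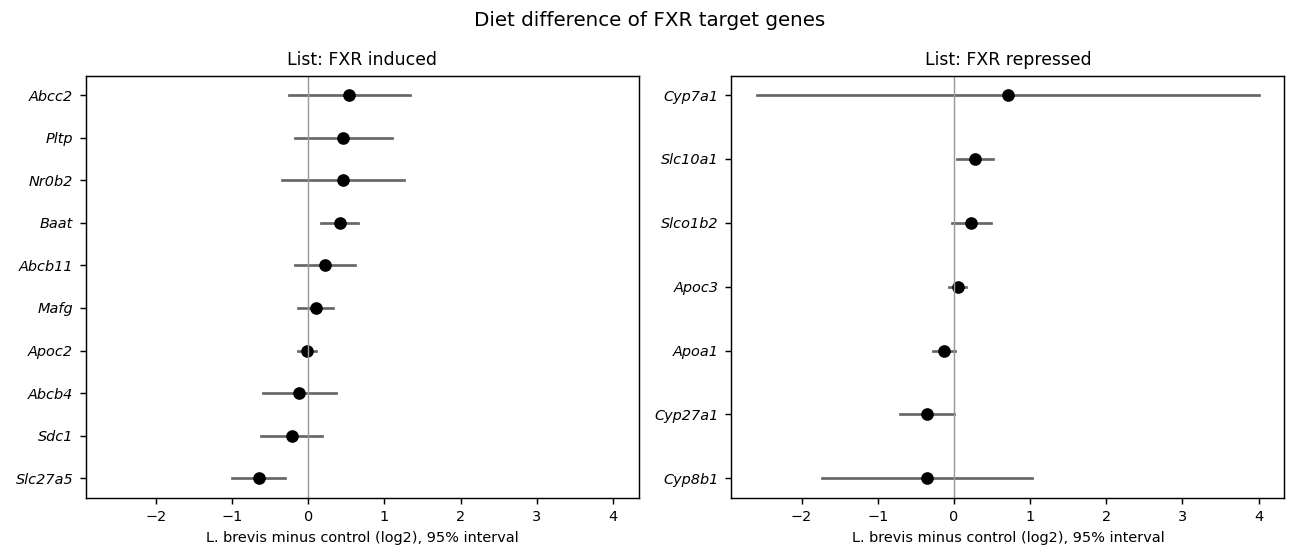
Difference between diets (horizontal axis, L. brevis minus control, log2) with limma's 95% interval for the varying genes of the FXR-induced list (left) and the FXR-repressed list (right). Slc27a5 and Baat lie clear of 0 on opposite sides, as do Cyp27a1 (narrowly) and Slc10a1, while the interval of Cyp7a1 runs from -2.59 to 4.01.

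Receptor and target levels were compared rat by rat in 48 receptor-target pairs. Of these, 7 had an unadjusted exact permutation p under 0.05 for Pearson's r and 0 an adjusted one, the lowest being 0.126. The share of all varying genes that correlate as strongly with each receptor was not computed. The pairs named below are therefore not set apart from genes outside the target lists. Nr1h4 went with Slc27a5 at r = 0.86 and rho = 0.86 (exact permutation p = 0.00769 and 0.0107, adjusted 0.126 and 0.171), at 0.94 without the 2 rats farthest from its median, at 0.61 within diets and at 0.67 with the GAPDH signal regressed out. It went with Cyp27a1 at r = 0.86 and rho = 0.86 (exact permutation p = 0.00481 and 0.0107, adjusted 0.126 and 0.171), at 0.76 without those rats, at 0.74 within diets and at 0.63 with the GAPDH signal regressed out. Both enzymes thus had lower means in the livers that read lower for the receptor, although one is listed as induced and the other as repressed.

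The other Nr1h4 pairs under an unadjusted 0.05 were negative. Mafg had r = -0.79 and rho = -0.69 (exact permutation p = 0.019 and 0.0694, adjusted p of r = 0.183), with -0.40 without the 2 farthest rats, -0.86 within diets and -0.69 with the GAPDH signal regressed out. Baat had r = -0.76 and rho = -0.74 (exact permutation p = 0.0274 and 0.0458, adjusted p of r = 0.219), with -0.50 without those rats, -0.35 within diets and -0.40 with that signal removed. Abcc2 had r = -0.73 and rho = -0.57 (exact permutation p = 0.0393 and 0.151, adjusted p of r = 0.27), with -0.49 without those rats, -0.62 within diets and -0.20 with that signal removed.

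SHP and the enzymes it represses showed no relation past the threshold. With Cyp8b1, Nr0b2 had r = -0.50 and rho = -0.40 (exact permutation p = 0.208 and 0.327), and -0.46 without the 2 rats farthest from its median. With Cyp7a1 it had r = 0.28 and rho = -0.10 (exact permutation p = 0.487 and 0.84), and -0.64 without those rats, so even the sign rests on single rats. The half-site in the promoters of Cyp8b1 and Nr0b2 is of the LRH-1 kind. Nr5a2 had r = 0.19 with Cyp8b1 and -0.01 with Nr0b2 (exact permutation p = 0.657 and 0.986). The Hnf4a pairs under an unadjusted 0.05 were Apoa4, a plasma apolipoprotein, and Mttp, the microsomal lipid transfer protein. Apoa4 had r = 0.77 and rho = 0.64 (exact permutation p = 0.0105 and 0.0962, adjusted p of r = 0.126), with 0.50 without the 2 rats farthest from the median of Hnf4a. Mttp had r = -0.72 and rho = -0.95 (exact permutation p = 0.00858 and 0.00114, adjusted 0.126 and 0.0548), with -0.90 without those rats and -0.78 within diets. Hnf4a read 11.57 to 11.65 in all rats but control rat 4 (11.85), so its order among them rests on small differences.

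The target lists of the other receptors likewise held no gene past limma's adjusted threshold. Of 9 PXR targets, all varying, 7 had a higher and 2 a lower mean in L. brevis livers (median difference 0.25), and 1 higher gene had an unadjusted p under 0.05: Cyp3a18, a steroid and drug hydroxylase, at 0.82 (SE 0.30, unadjusted limma p of 0.0284). Of 6 varying CAR targets 3 were higher and 3 lower (median 0.07), and Cyp2a1, a testosterone hydroxylase, differed by 0.72 (SE 0.30, unadjusted limma p of 0.0477). Each is 1 gene of its list, beside 10.7% of all varying probe sets higher at an unadjusted p under 0.05. The 3 varying AHR targets had a median of -0.22, the 10 varying HNF4A targets 0.03 and the 5 varying LRH-1 targets 0.45. At the brightest varying probe sets 0 genes of these 3 lists had an unadjusted p under 0.05. Dimmer varying probe sets did for Apob (0.31, unadjusted limma p of 0.00193, adjusted p = 0.115), Tiparp (0.53, unadjusted limma p of 0.00293, adjusted p = 0.116) and Scarb1 (0.29, unadjusted limma p of 0.047, adjusted p = 0.2). The LRH-1 list shares Cyp7a1, Cyp8b1 and Nr0b2 with the FXR lists, so its median is not a separate observation.

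Among 35 other nuclear receptors on the array 14 varied, 8 with a higher and 6 with a lower mean in L. brevis livers (median 0.02). Rora, which regulates lipid and circadian genes, had the largest difference, 0.86 (SE 0.11, limma, adjusted p = 0.0711), without overlap of the diets. Rxrb, another RXR that can serve as partner of FXR, read 7.49, 7.16, 6.99 and 7.08 in L. brevis rats, against 7.80, 7.48, 7.74 and 7.48 in control rats. Only L. brevis rat 1 reached the control range, and the difference of -0.44 (SE 0.13, unadjusted limma p of 0.0109, adjusted p = 0.136) was opposite in sign to that of Rxra. Rxrb read lowest in L. brevis rats 3 and 4, whose GAPDH 5' minus 3' signals of -0.94 and -0.68 were the least negative. It read highest in control rats 1 and 3, whose signals of -2.89 and -2.93 were the most negative. The part of that signal in the contrast of Rxra and Rxrb was not tested. Nr2f1, an orphan receptor of the COUP-TF family, differed by -0.27 (SE 0.06, adjusted p = 0.116) without overlap. Of all varying probe sets 11.3% had no overlap of the diets. Of 10 measured cofactors and partners 5 varied, and Crebbp, a histone acetyltransferase, differed by -0.49 (SE 0.18, unadjusted limma p of 0.0281, adjusted p = 0.168), while another of its probe sets gave 0.34. With array weights 5 of the 14 receptors passed the adjusted threshold, Rora, Rxrb, Nr2f1, Nr2f2 and Nr3c1 (the last 2 named after their values were seen), beside the 24.7% of all varying probe sets.

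**Figure D5:**
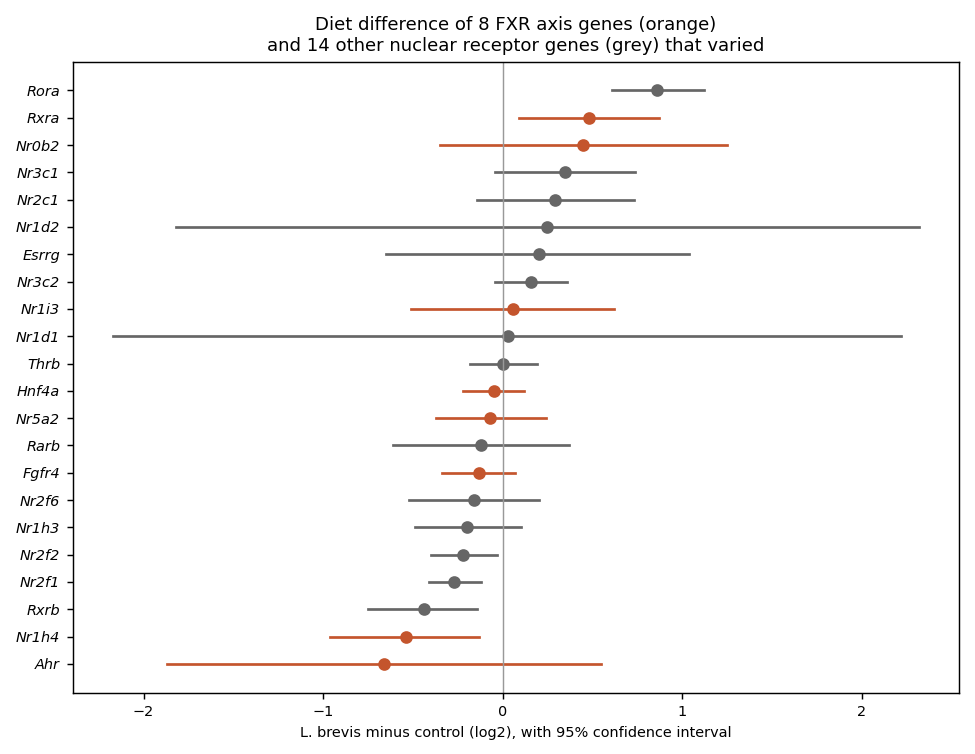
Difference between diets (horizontal axis, L. brevis minus control, log2) with limma's 95% interval for the 8 axis genes (orange) and 14 other nuclear receptors with a varying probe set (grey), ordered by size. Rora lies highest at 0.86 and Ahr lowest at -0.66, Rxra and Rxrb lie on opposite sides of 0, and the intervals of Nr1d1 and Nr1d2 are the widest.

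By spread between rats of a diet, the genes ran from Hnf4a (SD 0.09), Fgfr4 (0.12), Nr5a2 (0.19), Rxra (0.25) and Nr1h4 (0.27) to Nr1i3 (0.37), Nr0b2 (0.53) and Ahr (0.81). The genes whose pattern over the 8 rats was most like each one were named from 4158 others by Pearson's r, as a description. For Nr1h4 these were Ints6l (0.96), Vars2 (0.96) and Phf20 (0.95), and for Rxra they were Yipf3, Cpb2 and Impa1, each at 0.99. Nr0b2 was most like Cst3 (0.91), Ndufa12 (0.90) and Actr2 (0.89), and Fgfr4 most like Cog8 (0.99), Zfp703 (0.98) and Orc2 (0.96). Nr5a2 was most like Lpin2 (0.97), Nr1i3 most like Anxa5 (0.94) and Hnf4a most like Kcnh5 (0.91). Ahr was most like Rgs16 (0.95), Pik3ap1 (0.94) and the endothelial marker Lyve1 (0.94). With 8 rats and 4158 genes compared these values carry no test, and the genes of a rat share 1 array.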

How the data were processed

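Total RNA was extracted with Trizol, purified on a column and labelled with a 3' in vitro transcription kit, per the labels' protocols. The deposited table holds 1 log2 signal per probe set and array, normalized by the authors; the summarisation and normalization method, scan dates and batches are not given in the sources used here. Of 31099 probe sets, 57 Affymetrix controls were left out, and 20826 of the other 31042 had 1 gene symbol, 436 several and 9780 none in the platform annotation, with symbols updated through gene identifiers. A gene was represented by its varying probe set with the highest mean. The diets were compared with limma 3.58.1 in R 4.3.3 (lmFit, eBayes with an intensity trend), two-sided, over the 6323 probe sets whose highest and lowest values differed by over 0.01 log2, with p-values adjusted by Benjamini-Hochberg and called under 0.05. The fit was tested on simulated data. Exact permutation tests enumerated every arrangement with numpy 2.4.6, with ranks from scipy 1.17.1. The labels call the samples biological replicates, 4 per diet, and this number limits the precision.

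The members, the gene lists, the 0.01 limit and the tests were chosen with earlier results of these data known. Lists are described by counts and medians. Named were all members, up to 3 genes per list with an unadjusted p under 0.05 and the largest differences, any varying gene of the FXR lists, and for each member up to 3 genes with the highest Pearson r. Alternatives covered normalization, probe set filters, the replicate number as a block, array weights, the trend, a GAPDH covariate and leaving out each rat. Removing the GAPDH signal from correlations was added after the data were seen.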

Additional observations from a re-analysis of the deposited data

Results flagged for a closer look

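In 16 of 164 groups of 4 rats examined, 1 rat lay far from the other 3, with a gap to them above Dixon's 95% critical share of the group's range. Chance alone flags about 1 in 20 groups. Among the receptors and axis genes these were Fgfr4 in L. brevis rat 2, at 7.48 log2 against 7.65 to 7.68 in the rest of that diet, and Ahr in L. brevis rat 1, at 6.82 against 5.84 to 5.96. In control livers they were Nr5a2 (1384835_at) in rat 2, at 7.80 against 7.07 to 7.12 in the other control rats, and Hnf4a in rat 4, at 11.85 against 11.57 to 11.61.

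Among target genes in L. brevis livers, Cyp7a1 stood at 8.38 in rat 1 against 11.50 to 11.98 in the other 3 rats. Scarb1, the HDL receptor, stood at 8.47 in rat 2 against 8.82 to 8.85, and Nr2f1 at 6.52 in rat 1 against 6.35 to 6.37. The sulphotransferase Sult2a1 stood at 5.64 in rat 4 against 5.66 in the others, a very small gap in a dim signal that spanned 0.09 log2 over all rats. In control livers, Cyp27a1 stood at 11.78 in rat 4 against 12.26 to 12.29, Alas1, the first enzyme of heme synthesis, at 11.30 in rat 1 against 9.39 to 9.61, and Ugt2b1 at 6.25 in rat 1 against 8.79 to 9.08. Also in control livers, Aldh1a1 stood at 10.52 in rat 4 against 11.81 to 11.97 and Cyp3a2 at 13.21 in rat 2 against 13.48 to 13.52. Rarb stood at 9.37 in rat 2 against 8.61 to 8.63 and Nr3c2 at 6.60 in rat 3 against 6.89 to 6.91. The mean of the skeletal muscle markers was 9.41 in L. brevis rat 2 and at most 6.01 in the other 7 rats of both diets, and Acta1, skeletal muscle actin, read 12.45 there.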

How the results depend on the processing

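Over 143 alternative values of the 8 diet differences, 134 kept direction and side of the threshold, 3 passed it and 6 turned sign. With array weights Nr1h4 (-0.58) and Rxra (0.56) passed it, as did Rxra without L. brevis rat 1 (0.62). The mean over Nr5a2's varying probe sets gave 0.30, and the GAPDH covariate gave -0.23 for Nr1i3. The cause of these moves was not tested. Leaving out each rat gave -0.65 to -0.42 for Nr1h4, 0.21 to 0.70 for Nr0b2, -0.17 to -0.0685 for Fgfr4, -0.18 to -0.00656 for Nr5a2, 0.37 to 0.62 for Rxra and -0.97 to -0.22 for Ahr. It gave -0.0792 to 0.23 for Nr1i3, where it was -0.0677 without L. brevis rat 4 and -0.0581 without control rat 4, and -0.0778 to 0.0146 for Hnf4a. The replicate number as a block gave adjusted p-values of 0.0752 for Nr1h4 (-0.54), 0.072 for Rxra and 0.0758 for Nr0b2 (0.45, SE 0.09), and 0 calls in all, with 31.2% of varying probe sets at an unadjusted p under 0.05. The rats were not taken as pairs, since the labels give only numbers and deviations of same-numbered rats correlated at 0.36, 0.20, 0.08 and 0.38. Among the control rats, 3 of 4 L. brevis rats correlated best with the one of their own number. In the other direction control rats 1 and 2 correlated best with the L. brevis rat of their own number, and control rats 3 and 4 did not. This is at most a weak hint of pairing, from the data and not the design.

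Against 0 higher and 4 lower calls, array weights gave 759 and 802, and all probe sets gave 17 and 27. The limma fits with median centring, the block or the GAPDH covariate gave 0 lower, and before adjustment the covariate fit left 7.86% under 0.05. The exact permutation test also gave 0 lower, but it could call nothing after adjustment. Its smallest p of 0.0286 needs diets without overlap, which held for only 11.3% of varying probe sets. Leaving out each rat gave 0 to 542 higher and 0 to 604 lower calls, the highest without L. brevis rat 1 and 0 lower without any of 5 other rats. Array weights called 3 FXR-induced, 2 FXR-repressed, 2 PXR, 1 HNF4A, 5 other receptor and 1 cofactor genes. Without L. brevis rat 1 the calls were up to 2 FXR-induced, 2 PXR, 1 HNF4A and 4 other receptor genes, against 0 without any of the others.

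With the GAPDH covariate list medians were -0.045 for PXR, 0.014 for CAR, -0.57 for AHR, -0.0374 for HNF4A, 0.0472 for LRH-1 targets and 0.0467 for cofactors. With the brightest probe set, varying or not, they were 0.00 for FXR-induced genes, CAR targets and cofactors and 0.23 for LRH-1 targets. Array weights gave 0.0944 for LRH-1 targets and -0.25 for cofactors, quantile normalization 0.0239 for CAR and -0.00942 for HNF4A targets, the filter on dim probe sets 0.15 for CAR targets, and the mean over probe sets 0.13 for other receptors. Leaving out each rat gave 0.0288 to 0.21 (FXR-induced), -0.12 to 0.0685 (FXR-repressed), 0.11 to 0.53 (PXR), 0.0466 to 0.11 (CAR), -0.42 to -0.0947 (AHR), 0.000653 to 0.0823 (HNF4A), 0.0544 to 0.64 (LRH-1), -0.18 to 0.11 (other receptors), -0.29 to 0.0369 (cofactors) and -0.31 to -0.11 (FGF receptor genes).

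Of the 76 correlations computed, 34 turned sign under at least 1 alternative. Among the 17 followed here, those of Nr1h4 turned sign with Abcb11 (0.16 without the 2 farthest rats), Nr0b2 (0.38 within diets, 0.26 without the 2 rats, 0.41 with GAPDH removed), Cyp7a1 (rho 0.05, 0.09 within diets, 0.59 with GAPDH removed) and Cyp8b1 (rho -0.05, -0.24 within diets, -0.49 without the 2 rats, -0.38 with GAPDH removed). Those of Nr0b2 turned sign with Cyp7a1 (rho -0.10, -0.64 without the 2 rats) and Fgfr4 (0.24 without them). The other 54 alternative values of these 17 kept their sign and side.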

Other observations

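A pair of target genes outside the FXR lists had wide differences between the rats. Otc, the urea cycle enzyme of the HNF4A list, averaged 11.79 ± 1.16 log2 in L. brevis livers and 10.31 ± 0.82 in control livers (SD, n = 4 each), a difference of 1.48 (SE 0.64, limma adjusted p = 0.207). Ugt2b1, a glucuronosyltransferase of the CAR list, averaged 9.93 ± 1.61 in L. brevis livers and 8.25 ± 1.34 in control livers, a difference of 1.68 (SE 0.94, limma adjusted p = 0.296). Both were chosen after their values were seen, and their relation to the GAPDH 5' minus 3' signal was not tested.

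Further varying probe sets of a listed gene mostly gave a more positive difference than its brightest varying one. Cps1 gave 2.07 against -0.05 and Por 0.33 against -0.30, both chosen after their values were seen. Probe set 1370540_at of Nr1d2 went the other way, at 0.01 against 0.25. The relation of this shift to the GAPDH 5' minus 3' signal was not tested. The second varying probe set of Slco1b2 differed by 1.03 (SE 0.26, limma adjusted p = 0.125) between the diets without overlap, against 0.23 at the brightest. The second varying probe set of Tiparp, an AHR target, differed by 0.53 without overlap, against 0.24 at the brightest. Of all varying probe sets 11.3% had no overlap of the diets. For Nr2f2 the brightest varying probe set gave -0.22 and another gave 0.42.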
